A study of Mus musculus with 9 samples.

Results

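Left ventricles of db/db mice given the USP28 virus were compared with left ventricles of wild-type mice, 3 messenger RNA libraries against 3. The comparison covered the 13623 genes, of 30128 in the table (45.2%), whose RPKM value was at least 0.5 in at least 3 of these 6 libraries. RPKM is reads per kilobase of gene, scaled to the depth of the library. Of the 13623, 10624 are protein coding, 129 were kept through the USP28-virus libraries alone and 60 through the control libraries alone, and such genes had to differ. Just inside the threshold were 537 genes at 0.5 or more in exactly 3 libraries, and just outside were 618 in exactly 2. The control mice were labelled Wild Type, with no virus named. The treated mice were db/db, a strain with a mutated leptin receptor that becomes obese and diabetic, and had received adeno-associated virus of serotype 9 with USP28 behind the cardiac troponin T promoter, which restricts expression to cardiomyocytes. A further 3 db/db libraries, from mice given an empty virus of the same serotype (null virus), show what differed from control without the USP28 virus. Age, sex, strain background, dose and hour of collection were not given in the sources used here. The controls differ from the hearts of both db/db groups in genotype and in virus, and these cannot be told apart in either comparison.

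In a diabetic heart the cardiomyocyte is supplied with more fatty acid and responds less to insulin. Fatty acids activate PPAR alpha, a nuclear receptor that switches on genes of fatty acid transport, oxidation and export, while Pdk4, one of its targets, inactivates pyruvate dehydrogenase and so keeps pyruvate from becoming acetyl-CoA. USP28 is a deubiquitinating enzyme, which takes ubiquitin off proteins and can spare them from the proteasome. Mitochondria are kept in a balance of fusion, by the mitofusins Mfn1 and Mfn2 and by Opa1, and of fission, by the dynamin Dnm1l.

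Depth was 41055880 to 56497662 reads in the 6 libraries. Ventricular cardiomyocyte markers were present as the tissue label implies, and the 12 members summed to 42600 to 47300 scaled RPKM with USP28 virus and 44100 to 49500 in control. Atrial markers set USP28-virus replicate 1 apart: the atrial light chain Myl7 stood at 90.7 scaled RPKM there and was listed at 0 in replicates 2 and 3, Myl4 stood at 51.1 against 0.24 and 0.311, and Nppa at 1300 against 147 and 171. The 8 atrial markers summed to 128 to 201 in control and 150 to 1460 with USP28 virus. Null-virus replicate 1 departed most from its group, with a mean absolute log2 deviation of 0.322 where the remaining 8 libraries had 0.133 to 0.203. The labels do not say that libraries came from separate mice, so p-values measure the spread between libraries, which may be technical.

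Values of 8 genes in the USP28-virus columns were not whole numbers of reads, unlike 99.9839% of values above 0 in the table. They were Acadvl, Acadm, Hdac3, Pparg and Dgat2 in all 3 libraries, Acadl and Ppara in 2 each, and Cpt1b in 1. No control value was of this kind. The USP28-virus columns summed to 0.1441% to 0.1696% more reads than their steps imply, and the sources used here do not say how these values arose. In the null-virus columns 6 genes had such values, among them Mfn1 and Mfn2. Every result on these genes carries that limit. With the values in question left out, 1705 genes passed against control in place of the 1709 given next, 1260 were called in both db/db groups in place of 1263, and 89 passed between the db/db groups in place of 92.

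Usp28 itself (GRCm38 chr9:48985375-49042517) stood at 12.4, 13.3 and 13.6 scaled RPKM in control, 9.9, 11.3 and 11.2 with USP28 virus and 10.1, 7.59 and 7.79 with null virus. The USP28-virus libraries thus lay below every control library and overlapped the null-virus libraries. The log2 difference from control was −0.28 ± 0.12 (SE, adjusted p = 0.17), and an exact two-sided permutation test gave p = 0.1, the smallest that 3 against 3 allows. With the 6 libraries fitted alone the adjusted p was 0.034, and without null-virus replicate 1 it was 0.022, at the same difference. The sources used here do not say whether the Usp28 row counts the transcript of the virus. Usp25, its nearest relative, stood at 9.9 ± 0.455 with USP28 virus and 13.9 ± 0.549 in control (SD, n = 3 each), with adjusted p = 0.15.

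Treated db/db hearts still differed from wild-type hearts in fuel use, contraction, stress and immune genes. Of the 13623 genes, 1709 (12.5%) passed an adjusted p of 0.05 in limma, 828 of them higher (6.08%) and 881 lower (6.47%) with USP28 virus. The neutrophil protein S100a9 fell by more than any other gene named here. The median size of a passing difference was 0.66 on the log2 scale, and 318 genes differed by at least 1, 193 up and 125 down. Of the 1709, 54 had been kept through the USP28-virus libraries alone and 22 through the control libraries alone. In all 1709 the USP28-virus libraries lay wholly above or below the control libraries, as they did in 6369 genes (46.8%) of all tested, and 3933 genes (28.9%) had an unadjusted p under 0.05. Null-virus hearts differed from control in 3159 genes (23.2%). The USP28-virus and null-virus libraries did not overlap in 3252 genes (23.9%) of all tested. The 2 comparisons share the control libraries and were fitted together.

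**Figure D1:**
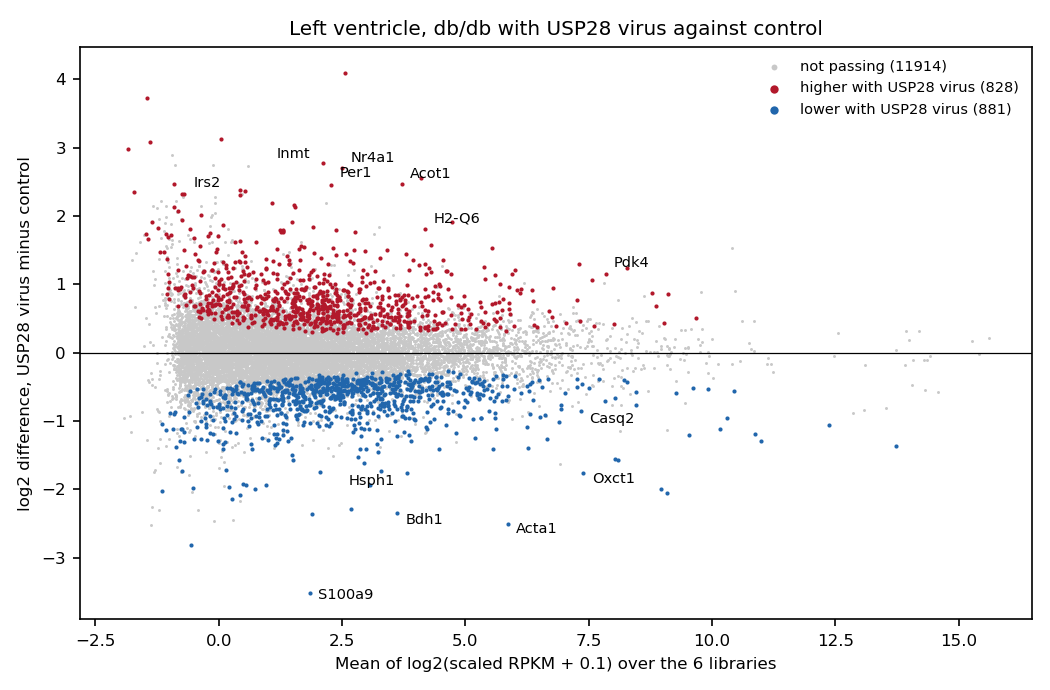
Log2 difference between USP28 virus and control (vertical) against mean log2(scaled RPKM + 0.1) over the 6 libraries (horizontal), 1 point per gene. Red points are the 828 genes that passed the test higher with USP28 virus and blue the 881 lower, grey points did not pass, and the labelled genes run from S100a9 at −3.52 to Inmt at 2.78.

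The count of 1709 depended on single libraries. It was 393 without USP28-virus replicate 1, 836 without replicate 2 and 607 without replicate 3, then 1058, 501 and 447 without control replicates 1, 2 and 3, and 4141 without null-virus replicate 1. With the 6 libraries fitted alone it was 3875, including 1708 of the 1709, and 348 of the 1709 passed in the same direction in each of the 9 omissions. With library totals in place of the trimmed mean it was 957, of which 66.5% were higher, against 48.4% in the main setting, and the median of all genes moved by 0.054. Each gene named as having risen or fallen passed in every omission unless a number out of 9 is given.

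Of the 1709 genes, 1263 (9.27% of all tested) also passed in null-virus hearts and in the same direction, 576 higher (4.23%) and 687 lower (5.04%). They made up 73.9% of the genes called with USP28 virus and 40% of those called with null virus. Shared controls favour such agreement. Of the 1263, 769 had a smaller absolute log2 difference with USP28 virus than with null virus. Under library totals the count was 727, and over the 9 omissions it ran from 339, without USP28-virus replicate 1, to 2678, without null-virus replicate 1. All 6 omissions of a control or USP28-virus library left between 339 and 811.

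Among the largest rises in both db/db groups were an enzyme, a receptor and a synaptic protein outside the lists described next. Inmt, which methylates indole amines such as tryptamine, stood at 13.8, 12.7 and 8.01 scaled RPKM with USP28 virus and 2.47, 1.57 and 0.928 in control, a log2 difference of 2.78 (2.73 with null virus). Pth1r, the parathyroid hormone receptor, stood at 4.74, 4.4 and 4.08 against 1.53, 0.778 and 0.575, and rose by 2.19 (2.62 with null virus). Nrxn2, a neurexin, rose by 2.36 (2.16). Among the falls, Tmem150c stood at 0.46, 0.722 and 0.72 against 2.38, 2.72 and 2.82, and fell by 1.92 on the log2 scale (−2.08 with null virus). In these genes no USP28-virus library overlapped a control library, as in all 1709 that passed.

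Part of the genes of fatty acid handling were higher than in control. Over all 13623 genes 6.08% were higher and 6.47% lower, and the list counts below are to be read beside these shares. Some genes belong to several lists, such as Pdk4, Acadm and Acadl, so the list counts are not separate results. Of 17 tested PPAR alpha targets 9 were higher and 0 lower, with a median log2 difference of 0.86 where the median of all genes was 0.009. Acot1, a cytosolic thioesterase that frees fatty acids from coenzyme A, stood at 35.6, 30.3 and 27 scaled RPKM with USP28 virus and 8.07, 3.61 and 5.58 in control, a log2 difference of 2.47 ± 0.25 (SE, adjusted p = 0.0023) where null virus gave 3.27. Its mitochondrial relative Acot2 rose by 1.53 (2.14 with null virus). Acot1 and Acot2 are close copies, and reads could be divided between them.

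The uncoupling proteins and the pyruvate dehydrogenase kinase of this group followed. Ucp3 of the inner mitochondrial membrane stood at 39.3, 35.3 and 37.1 scaled RPKM against 20.9, 14 and 14.5 in control, and rose by 1.20 (1.88 with null virus). Ucp2 rose by 1.36. Pdk4 (chr6:5483351-5496309) stood at 329, 358 and 343 against 140, 150 and 173 in control and 569, 831 and 798 with null virus, so that the 3 groups did not overlap. It rose by 1.16 ± 0.16 over control (adjusted p = 0.0051) and was lower than with null virus by a log2 difference of −1.07 (adjusted p = 0.034, 1 of 9 omissions).

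Enzymes of fatty acid oxidation rose in part. Of 26 beta-oxidation genes 8 were higher and 1, Echs1 (3 of 9 omissions), lower, with a median of 0.27. Decr1, which handles unsaturated fatty acids, stood at 72.2, 72.8 and 76.7 scaled RPKM against 38.7, 32.6 and 39.2, a rise of 1.01 ± 0.16 (adjusted p = 0.0084) where null virus gave 1.18. Eci2, an isomerase, rose by 0.61 (6 of 9 omissions). The acyl-CoA dehydrogenases Acadvl, Acadm and Acadl rose by 1.25, 0.87 and 0.86 (Acadl in 7 of 9), but each of these has values off the whole-read steps. Without genes that have such values with USP28 virus, 5 of 22 beta-oxidation genes and 7 of 14 PPAR alpha targets were higher. The beta-oxidation count was 3 without USP28-virus replicate 1 or control replicate 2 and 14 without null-virus replicate 1. The PPAR alpha target count was 7 and 14 under the same omissions.

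Lipid stores and uptake gave smaller counts. Of 18 genes of lipid droplets and triglyceride turnover 5 were higher and 2 lower, and of 12 genes of fatty acid uptake and lipoprotein lipolysis 3 were higher. Pnpla2, the first lipase of stored triglyceride, stood at 90, 90.1 and 94.8 scaled RPKM against 45.9, 36.1 and 42.6, a rise of 1.15 ± 0.13 (adjusted p = 0.0029) where null virus gave 1.49. Its coactivator Abhd5 went the other way, at 1.93, 2.22 and 2.16 against 3.24, 3.34 and 3.08, and fell by 0.59 on the log2 scale. Lpin1, which makes diacylglycerol, fell by 1.29 on that scale. Gpihbp1, which holds lipoprotein lipase on the capillary wall, rose by 0.94, whereas Lpl itself stood at 243 ± 12.4 against 310 ± 10.8 (SD, n = 3 each) with adjusted p = 0.059. Each of these 2 lists kept only 1 higher gene without USP28-virus replicate 1, 2 or 3 or control replicate 2 or 3, and had 7 without null-virus replicate 1. The lower count of the lipid droplet list was 4 in that last case.

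Some enzymes of ketone use, glucose use and amino acid breakdown were lower than in control. The ketone-using enzymes Oxct1 and Bdh1 were the 2 of 6 ketone body genes that were lower, and both passed in each of the 9 omissions. Oxct1 (chr15:4026383-4155344) stood at 79, 101 and 94.6 scaled RPKM with USP28 virus, 300, 322 and 305 in control and 80.3, 112 and 118 with null virus. This was a fall by 1.76 ± 0.16 (log2, adjusted p = 0.0016). Bdh1 stood at 6.24, 4.52 and 5.43 against 26, 30.3 and 27, a fall by 2.35 ± 0.23 on that scale (−1.94 with null virus). In both genes the USP28-virus libraries lay among or below the null-virus libraries.

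Of 29 genes of glucose uptake and glycolysis 7 were lower and 1, Pdk4, higher. Hexokinase Hk2, which traps glucose in the cell, stood at 17.1, 20.4 and 18.3 against 38.7, 44.5 and 42.3, and fell by 1.17 on the log2 scale (−1.52 with null virus). The muscle enolase Eno3 and Dlat, the core of pyruvate dehydrogenase, fell by 0.71 and 0.55 on that scale. The glucose transporter Slc2a4 had a log2 difference of −0.43 (adjusted p = 0.054). The lower count was 3 without USP28-virus replicate 1 or 3 or control replicate 2 or 3, and 17 without null-virus replicate 1. Of 21 enzymes that break down branched-chain amino acids, 9 were lower and 0 higher. Dbt, of the complex that commits their ketoacids to breakdown, stood at 7.09, 8.52 and 7.35 against 13.1, 13.4 and 13.1, and fell by 0.78 on the log2 scale (−0.64 with null virus). Acadsb fell by 0.63 and Ivd by 0.61 on that scale (Ivd in 7 of 9). This count was 2 without control replicate 3, 3 without USP28-virus replicate 1, 4 under library totals and 14 without null-virus replicate 1.

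Insulin signalling changed at its adaptors in opposite directions. Irs2 stood at 2.57, 2.94 and 3.18 scaled RPKM with USP28 virus, 0.339, 0.486 and 0.748 in control and 1.39, 0.67 and 1.01 with null virus, so that no library of the USP28-virus group overlapped another group. It rose by 2.31 ± 0.29 over control (adjusted p = 0.0037). Its difference from null virus was 1.46 (95% interval 0.81 to 2.11, adjusted p = 0.064), and that of null virus from control 0.85 (adjusted p = 0.061). Irs1 stood at 0.858, 1.05 and 0.769 against 1.34, 1.99 and 2.38 in control, a fall by 0.99 on the log2 scale in 4 of 9 omissions. Of 25 genes of the pathway 2 were higher and 4 lower, where 6.08% and 6.47% of all genes were. The lower count was 0 under library totals, 0 without USP28-virus replicate 1 or 3 or control replicate 2 or 3, and 9 without null-virus replicate 1.

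**Figure D2:**
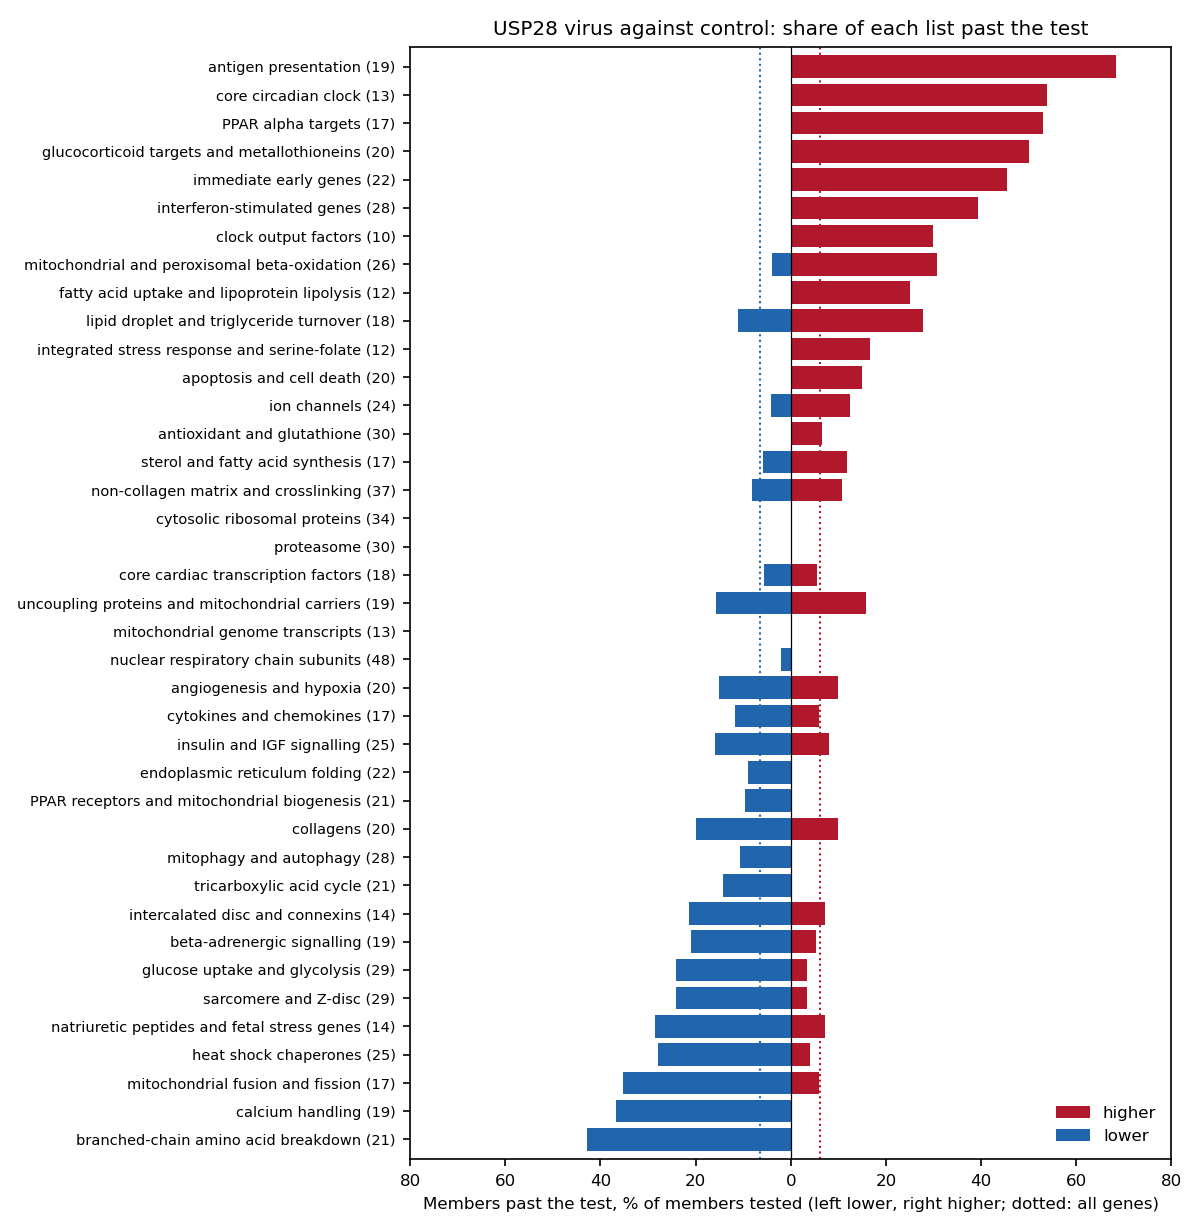
Share of the tested members of each list (number in brackets) that passed higher (red, right) or lower (blue, left) with USP28 virus against control, in percent. Dotted lines mark the shares of all 13623 genes, 6.08% higher and 6.47% lower. The antigen presentation bar, 13 of 19 higher, is the longest to the right and branched-chain amino acid breakdown, 9 of 21 lower, the longest to the left.

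Several genes that shape mitochondria were lower than in control. Of 17 fusion and fission genes 6 were lower and 1, the formin Inf2, higher. Opa1, which fuses the inner membrane, stood at 14.1, 16.2 and 16.2 scaled RPKM against 24.9, 26.8 and 26.6, and fell by 0.75 on the log2 scale. The fission dynamin Dnm1l stood at 8.49, 10.9 and 10.2 against 19, 19.4 and 18.6, and fell by 0.95 on that scale (−1.10 with null virus). Inf2 stood at 6.7, 5.61 and 7.01 against 2.86, 2.79 and 2.83, and rose by 1.15.

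Mfn1 stood at 42.2, 42 and 46.7 with USP28 virus, 55.6, 54.1 and 55.8 in control and 22.2, 24.1 and 25.2 with null virus. Its log2 difference from control was −0.34 (adjusted p = 0.041, 2 of 9 omissions) and from null virus 0.87 (adjusted p = 0.023, 4 of 9). Mfn2 stood at 62.7, 75.2 and 66.1, 90.8, 93.4 and 94.9, and 46.4, 43.9 and 44.4 in the same order, −0.46 from control (adjusted p = 0.019, 5 of 9 omissions) and 0.59 from null virus (adjusted p = 0.039, 1 of 9). The 3 groups did not overlap in either gene. Null-virus values of Mfn1 in all 3 libraries and of Mfn2 in 2 are not whole reads. With these left out, Mfn1 could not be compared with null virus and had adjusted p = 0.062 against control, while Mfn2 had 0.55 from null virus with adjusted p = 0.15 and stayed lower than control at adjusted p = 0.038. The list then had 5 lower. With all values it had 3 lower without USP28-virus replicate 1 or 3 or control replicate 2 or 3, and 10 without null-virus replicate 1.

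Respiratory chain genes showed few changes. Of 48 nuclear respiratory chain subunits 0 were higher and 1, Ndufa10, lower (2 of 9 omissions), with a median of −0.04, and of the 13 transcripts of the mitochondrial genome none passed in limma, with a median of −0.10 (0.05 without USP28-virus replicate 1). Without null-virus replicate 1 these were 2 higher and 7 lower, and 0 higher and 2 lower. Of 19 uncoupling protein and mitochondrial carrier genes 3 were higher and 3 lower, and of 21 tricarboxylic acid cycle genes 0 were higher and 3 lower. Of 21 genes of PPAR receptors and mitochondrial biogenesis 0 were higher and 2 lower. Each of these lower counts was 0 without control replicate 2 or 3, and they were 5, 8 and 9 without null-virus replicate 1. In the last list the nuclear receptor Esrrg fell by 0.69 (6 of 9) and the mitochondrial DNA factor Tfam by 0.43 (2 of 9) on the log2 scale. Ppara stood at 2.03, 1.92 and 2.18 against 2.75, 2.92 and 2.71 in control and 0.652, 1.06 and 1.57 with null virus, with adjusted p = 0.28 for the first difference, and 2 of its USP28-virus values are not whole reads. Cytosolic ribosomal protein genes had a median of 0.39 with 0 of 34 past the test, and 32 of 34 higher without null-virus replicate 1.

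Several contraction and calcium genes were lower than in control. Of 29 sarcomere and Z-disc genes 7 were lower and 1 higher, and of 19 calcium handling genes 7 were lower and 0 higher, with medians of −0.24 and −0.49. Casq2 (chr3:102086415-102146514), which stores calcium in the sarcoplasmic reticulum, stood at 115, 122 and 124 scaled RPKM with USP28 virus, 213, 216 and 220 in control and 116, 118 and 121 with null virus. It fell by 0.85 ± 0.09 (log2, adjusted p = 0.0023), and its difference from null virus was 0.02 with a 95% interval of −0.17 to 0.22. Jph2, which holds the reticulum to the T-tubule, fell by 0.65 on that scale (−0.77 with null virus). The calcium pump Atp2a2 stood at 405, 557 and 506 against 1150, 1050 and 1160, a fall by 1.21 in 3 of 9 omissions.

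Among sarcomere genes, Xirp2, an actin-binding protein of the Z-disc and intercalated disc, stood at 34.8, 33.1 and 36.4 against 66.9, 67.6 and 67.8, and fell by 0.95 on the log2 scale. Cardiac actin Actc1 stood at 704, 818 and 819 against 1640, 1790 and 1660, a fall by 1.12 on that scale in 7 of 9 omissions. Skeletal actin Acta1, a fetal and stress gene of the heart, stood at 32.4, 19.3 and 22.6 against 226, 126 and 93.3, and fell by 2.51 on that scale. Myom2, of the M-band, rose by 1.29. The sarcomere list had 3 lower without USP28-virus replicate 1 or control replicate 2 and 14 without null-virus replicate 1. The calcium list had 2 lower without USP28-virus replicate 1 or 3 or control replicate 2 or 3, 3 under library totals and 11 without null-virus replicate 1.

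Of 14 natriuretic peptide and fetal stress genes 1, Ces1d, was higher and 4 were lower, namely Acta1, Xirp2, Rcan1 and Ankrd2 (Ces1d in 4 of 9 omissions, Rcan1 and Ankrd2 in 2). The best known members did not pass. Nppb stood at 81, 108 and 101 scaled RPKM with USP28 virus and 33.9, 205 and 196 in control, and Myh6 at 16800 ± 1420 against 18000 ± 1470 (SD, n = 3 each). Myh7 stood at 554, 533 and 485 against 353, 253 and 283, with no overlap, a log2 difference of 0.83 and adjusted p = 0.15. Nppa was high in USP28-virus replicate 1 alone, as given above. The list had 0 higher and 2 lower without USP28-virus replicate 1 or 3 or control replicate 2 or 3, and 4 of each without null-virus replicate 1.

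Conduction genes gave small counts. Of 24 ion channel genes 3 were higher and 1 lower, where 6.08% and 6.47% of all genes were. Counts this small were not tested against those shares. The potassium channel Kcna5 stood at 6.3, 6.67 and 6.96 against 4.17, 3.79 and 4.26, and rose by 0.69. The pacemaker channel Hcn2 fell by 0.85 on the log2 scale in 4 of 9 omissions. The main ventricular connexin Gja1 stood at 29.5, 41.9 and 29.4 against 50.8, 64.4 and 65.5, and fell by 0.85 on that scale in 5 of 9. The ion channel list had 1 higher and 0 lower without USP28-virus replicate 1 or 3 or control replicate 1, 2 or 3, 1 of each under library totals, and 5 higher and 9 lower without null-virus replicate 1.

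**Figure D3:**
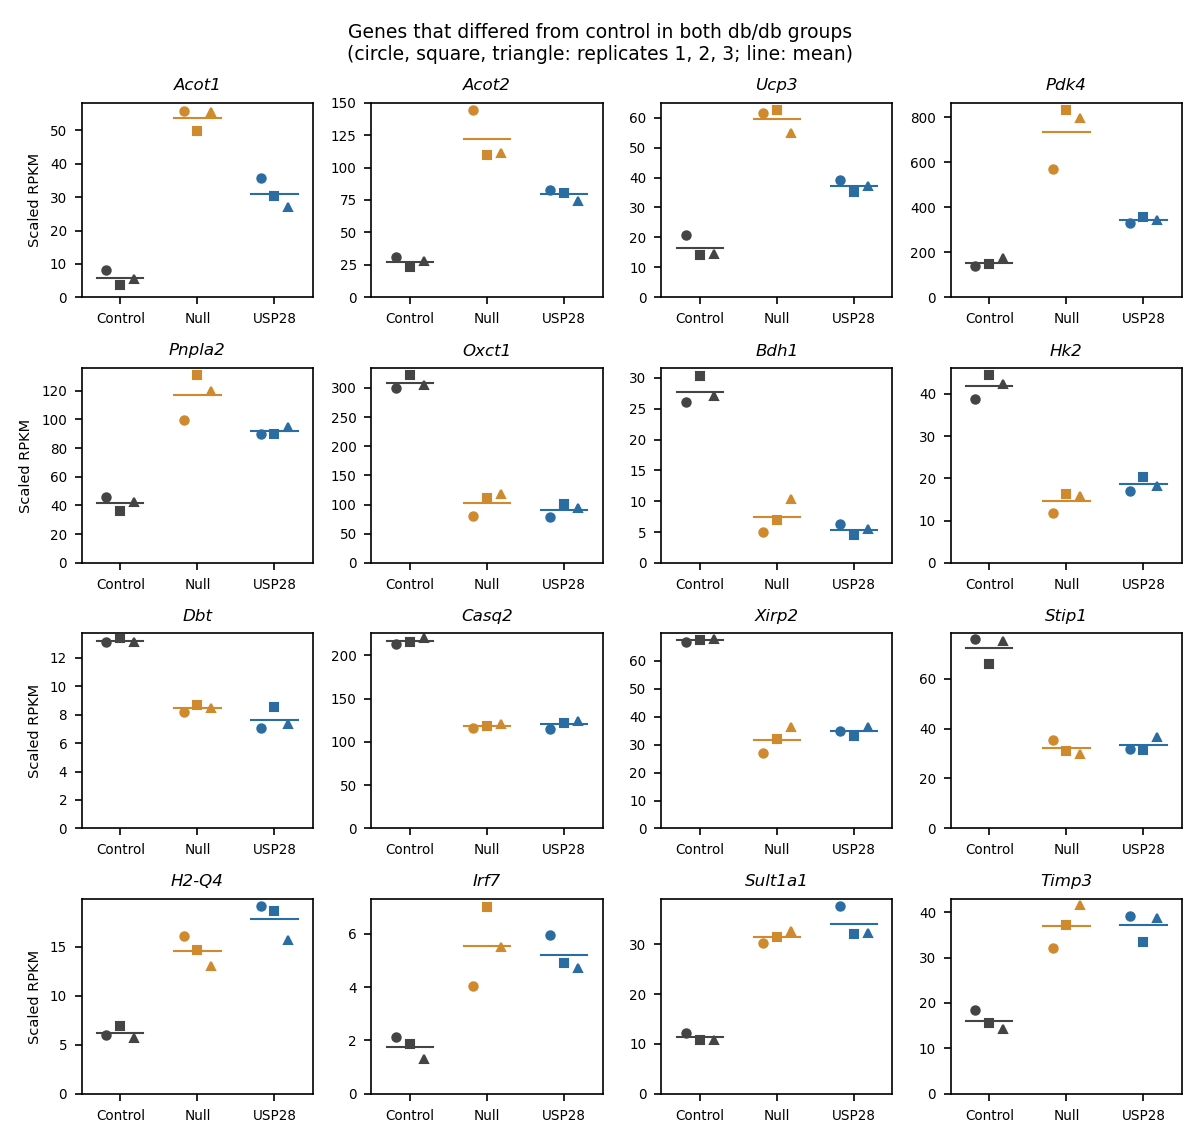
Scaled RPKM (vertical, from 0, own scale in each panel) of 16 genes by library in the control, null-virus and USP28-virus groups, with a line at each group mean. In every panel the 3 USP28-virus points lie clear of the 3 control points, as in all 1709 genes that passed. The panels were chosen from such genes, so this is no separate result. Casq2 and Stip1 show db/db groups that overlap, and Pdk4 shows USP28 virus (329 to 358) between control (140 to 173) and null virus (569 to 831).

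Matrix genes went both ways. Of 20 collagens 4 were lower and 2 higher, with a median of −0.36 (13 lower, median −0.87, with null virus). Col1a1, of the main fibrillar collagen, stood at 3.47, 3.89 and 2.67 scaled RPKM against 6.74, 8.05 and 5.94, a fall by 1.03 on the log2 scale (8 of 9). Col6a3, a chain of the microfibrillar collagen VI, stood at 1.61, 1.69 and 1.69 against 2.7, 3.71 and 3.1 in control and 0.65, 0.961 and 0.739 with null virus. It lay −0.88 from control (6 of 9) and 1.01 above null virus (adjusted p = 0.039), and the groups did not overlap. The lower count was 0 without control replicate 2, 1 without USP28-virus replicate 1 and 10 without null-virus replicate 1, and the higher count 0 under library totals and without any of USP28-virus replicates 1 to 3, control replicate 1 or control replicate 3.

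Among inhibitors of matrix proteases Timp3 and Timp4 rose and Timp1 fell. Timp3 stood at 39.2, 33.4 and 38.6 against 18.5, 15.6 and 14.2, a rise of 1.20 ± 0.14 (adjusted p = 0.0029), and Timp4, found mainly in heart, rose by 1.19. Their differences from null virus were 0.01 (95% interval −0.30 to 0.32) and −0.24 (−0.59 to 0.12). Timp1 stood at 0.74, 0.49 and 0.457 against 1.95, 1.96 and 1.12, a fall by 1.41 on the log2 scale in 5 of 9 omissions. P4ha1, which hydroxylates collagen prolines, stood at 4.23, 4.54 and 5.54 against 9.26, 13.5 and 16.4, and fell by 1.40 on the log2 scale. In all, 4 of 37 non-collagen matrix genes were higher and 3 lower, where 6.08% and 6.47% of all genes were. These counts were not tested against those shares. The higher count was 2 without USP28-virus replicate 1 or 2 or control replicate 2 or 3, the lower count 1 without USP28-virus replicate 2 or 3 or control replicate 2, and they were 7 and 8 without null-virus replicate 1.

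Some heat shock chaperones were lower and some glucocorticoid-responsive genes higher than in control. Of 25 chaperone genes 7 were lower and 1 higher (0 higher under library totals). Stip1, which links Hsp70 to Hsp90, stood at 31.8, 31.5 and 36.6 scaled RPKM against 75.8, 65.8 and 75.2, and fell by 1.12 ± 0.11 (log2, adjusted p = 0.0022) where null virus gave −1.17. Hsph1, of the Hsp110 family, stood at 6.52, 5.59 and 11.7 against 32.9, 20.2 and 25.8, and fell by 1.76 on that scale (−2.12 with null virus). The Hsp90 gene Hsp90aa1 fell by 0.92 in 3 of 9 omissions. Of 20 glucocorticoid targets and metallothioneins 10 were higher and 0 lower, with a median of 0.61. Nfkbia, the inhibitor of NF-kappaB, stood at 11.9, 12.7 and 13.3 against 5.97, 6.14 and 6.28, a rise of 1.03 ± 0.08 (adjusted p = 0.0014), and was at 14.7, 13.9 and 14.2 with null virus. Sult1a1, a sulfotransferase, rose by 1.57, and Ddit4, which restrains mTORC1, by 1.54. Chaperones had 4 lower without USP28-virus replicate 1 or 2 or control replicate 2 or 3 and 14 without null-virus replicate 1. The glucocorticoid list kept 8 to 10 higher over all 9 omissions. Its higher members include Pdk4, Per1 and Dusp1, which are also counted in the PPAR alpha target, core clock and immediate early lists.

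Antigen presentation genes were the list with the largest share past the test among the 41 pathway lists, 13 of 19 higher and 0 lower, with a median of 0.69. These genes load peptides onto class I molecules for display to T cells. H2-Q4 (chr17:35379617-35385290) stood at 19.2, 18.7 and 15.7 scaled RPKM with USP28 virus, 6.04, 6.91 and 5.74 in control and 16.1, 14.7 and 13 with null virus, and rose by 1.50 ± 0.12 (adjusted p = 0.0016). The classical class I genes H2-K1 and H2-D1 rose by 1.21 and 0.96, and the transporter Tap1 by 0.88. H2 genes are near-identical copies whose reads can be divided among them, so single H2 values are uncertain. The count of 13 carries the same limit, since H2-Q6, H2-Q4, H2-D1, H2-T23, H2-Q7, H2-K1 and H2-T22 are among its members. The count was 8 without USP28-virus replicate 1 or control replicate 3.

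Of 28 interferon-stimulated genes 11 were higher and 0 lower, with a median of 0.57. Irf7, the factor that amplifies the interferon response, stood at 5.93, 4.9 and 4.72 against 2.12, 1.87 and 1.31 in control and 4.05, 7.01 and 5.5 with null virus, and rose by 1.52 ± 0.22 (adjusted p = 0.0062). Stat2, its upstream signal carrier, rose by 0.93 and the GTPase Gbp3 by 0.99. Ifit3, an antiviral protein, stood at 18.6, 17.4 and 14.4 against 11.3, 11.6 and 6.91, a rise of 0.78 in 2 of 9 omissions. The count was 3 without control replicate 3, 4 without USP28-virus replicate 1 and 20 without null-virus replicate 1. The db/db groups both carried a virus and the controls none by the labels, so virus and genotype cannot be told apart for these genes.

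The Ifit3 promoter is shown because it holds the core of the interferon-stimulated response element, which reads GAAA, any 2 bases, GAAA, on either strand, 2 times. This is the stretch of 250 bases before the RefSeq start of the gene on GRCm38.p6, chr19:34583279-34583528, plus strand, with the matches in capitals.
Ifit3: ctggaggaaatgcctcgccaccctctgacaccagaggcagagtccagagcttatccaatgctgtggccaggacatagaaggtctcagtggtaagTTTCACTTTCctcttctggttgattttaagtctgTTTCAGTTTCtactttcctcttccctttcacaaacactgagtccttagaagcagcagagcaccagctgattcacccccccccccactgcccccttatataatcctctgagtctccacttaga
Of 32851 RefSeq promoter windows of 250 bases, 2.98% held the core at least once and 0.18% at least 2 times. Among the interferon-stimulated genes that were higher, 5 of 10 with a window held it, namely Stat2, Gbp3, Gbp2, Gbp7 and Ifit3. Of the higher antigen presentation genes 3 of 12 did. These are genes with a match in any of their windows, whereas the shares are of single windows, so the measures are unlike. Members that did not pass were not counted.

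Marker genes of other cell types moved beside these lists. Endothelial markers were higher in 6 of 14 and lower in 0, with a summed level of 320 to 366 scaled RPKM with USP28 virus, 201 to 227 in control and 380 to 474 with null virus. Among them Rgcc rose by 1.45, Egfl7 by 0.66 and Esam by 0.68 (Esam in 8 of 9). Fibroblast markers were higher in 1 of 12 (Gsn) and lower in 2 (Pi16 and Col1a1), with a median of −0.30. With null virus 1 was higher and 7 lower, with a median of −0.50. The markers summed to 304 to 344 with USP28 virus, 219 to 250 in control and 289 to 331 with null virus. Sum and median thus went opposite ways, and a sum follows its most abundant members. Macrophage markers were lower in 1 of 11 (Cx3cr1, 5 of 9), at 34.5 to 42.1 against 45.9 to 57.6 in control. The neutrophil list fell through S100a9 alone, at 0.489, 1.02 and 1.71 against 9.47, 16.2 and 11.4, a log2 difference of −3.52 ± 0.39, and the list summed to 0.665 to 2.15 against 10.2 to 18.3. Its defining member Ly6g was too low to test, at 0.0498 in 1 control library and listed at 0 in the other 8. T and natural killer cell markers summed to at most 1.2 in any library of the 6. The part of these markers in the interferon, antigen presentation and matrix results was not tested, and in bulk tissue fewer cells of a type cannot be told apart from less RNA per cell. The endothelial count was 3 without USP28-virus replicate 1, and the lower fibroblast count 1 without control replicate 2 and 4 without null-virus replicate 1.

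Part of the immediate early genes, the Nr4a receptors among them, were higher with USP28 virus. Such genes answer a signal within minutes without new protein. Of 22 tested 10 were higher and 0 lower, with a median of 0.84. Nr4a2, one of the 10, was kept for testing through the USP28-virus libraries alone, so its rise over control is a description. The orphan nuclear receptor Nr4a1 stood at 13.6, 17.8 and 12.4 scaled RPKM with USP28 virus, 1.03, 1.83 and 4.95 in control and 1.28, 3.27 and 3.44 with null virus. It rose by 2.71 ± 0.54 (adjusted p = 0.016, 5 of 9 omissions), and its difference from null virus was 2.51 (adjusted p = 0.08). Its relative Nr4a3 stood at 1.64, 1.11 and 1.82 against 0.271, 0.564 and 0.669, a rise of 1.47 in 3 of 9. Klf2 and Klf4, Krüppel-like factors, rose by 1.77 and 1.21 and rose with null virus too, by 1.55 and 1.38. Fos, the best known member, stood at 1.59, 4.21 and 1.2 against 0.387, 1.59 and 2.63, with overlap and adjusted p = 0.53. The count was 4 without USP28-virus replicate 1 and 14 without null-virus replicate 1.

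All 3 Nr4a genes were higher, Nr4a2 with the limit given above. TGACG, which reads CGTCA on the other strand, is the core of the cAMP response element. The Nr4a promoters are shown because each window holds 4 copies of it on either strand. Each is the stretch of 250 bases before the RefSeq start on GRCm38.p6, chr15:101266596-101266845, plus strand, for Nr4a1 and chr2:57124004-57124253, minus strand, for Nr4a2. Capitals mark the matches.
Nr4a1: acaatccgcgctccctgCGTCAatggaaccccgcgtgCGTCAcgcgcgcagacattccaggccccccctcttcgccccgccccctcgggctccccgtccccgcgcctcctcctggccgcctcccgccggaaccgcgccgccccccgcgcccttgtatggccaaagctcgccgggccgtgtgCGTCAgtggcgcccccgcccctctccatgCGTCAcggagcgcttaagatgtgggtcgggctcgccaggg
Nr4a2: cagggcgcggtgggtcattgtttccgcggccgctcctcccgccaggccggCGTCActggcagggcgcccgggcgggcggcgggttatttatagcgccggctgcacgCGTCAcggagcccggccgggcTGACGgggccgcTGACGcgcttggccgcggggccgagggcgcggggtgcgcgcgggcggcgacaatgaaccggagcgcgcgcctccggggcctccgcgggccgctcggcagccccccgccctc
At least 1 copy was in 17.8% of the 32851 windows and at least 4 in 0.137%. Of the 10 higher immediate early genes 7 held at least 1, namely Klf2, Klf4, Btg2, Dusp1 and the 3 Nr4a genes. A gene counted if any of its windows held a copy, whereas the shares are of single windows, so these are unlike measures. Members that did not pass were not counted.

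Of 13 core clock genes 7 were higher and 0 lower, with a median of 0.71. Per1 (chr11:69095217-69109960) stood at 12.2, 11.3 and 10.3 scaled RPKM with USP28 virus, 3.6, 1.23 and 1.73 in control and 3.22, 6.75 and 7.67 with null virus, a rise of 2.45 ± 0.40 (adjusted p = 0.0084). Per2 rose by 1.91. Ciart, a repressor of the clock, stood at 5.59, 5.73 and 6.73 against 3.21, 0.633 and 0.934, a rise of 2.17 in 4 of 9 omissions, and was 1.43 ± 0.455 (SD, n = 3) with null virus. In all 3 genes control replicate 1 was the highest control.

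Dbp, Arntl and Nfil3, chosen after their values were seen, set control replicate 1 apart. Dbp, an output factor that peaks opposite to Arntl, stood at 14.6, 3.15 and 2.26 in control and 14.6, 17.1 and 16.5 with USP28 virus. Arntl, the clock's activator, stood at 0.489, 1.94 and 2.01 in control and 0.32, 0.331 and 0.251 with USP28 virus, too low to be tested. Nfil3, which opposes Dbp, stood at 2.38, 7.82 and 7.59 in control and 2.76, 3.58 and 3.56 with USP28 virus. In these 3 genes control replicate 1 lay by the USP28-virus libraries and replicates 2 and 3 lay apart. Without control replicate 1, Dbp rose by 2.54 (adjusted p = 0.024, from 1.74 and 0.12 with it), Per1 by 2.87 and Ciart by 2.81, and Nfil3 fell by 1.21 (log2, adjusted p = 0.036). The hour of collection is not in the labels, so hour and group cannot be told apart. The core clock count was 2 without USP28-virus replicate 1 or control replicate 3 and 3 without control replicate 2.

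Per3 rose by 1.41 in 3 of 9 omissions, and its promoter is shown because it holds 2 copies of the D-box TTATGTAA, searched on both strands, to which Dbp and its relatives bind. The window is chr4:151044666-151044915 on GRCm38.p6, minus strand, from RefSeq, with the copies in capitals.
Per3: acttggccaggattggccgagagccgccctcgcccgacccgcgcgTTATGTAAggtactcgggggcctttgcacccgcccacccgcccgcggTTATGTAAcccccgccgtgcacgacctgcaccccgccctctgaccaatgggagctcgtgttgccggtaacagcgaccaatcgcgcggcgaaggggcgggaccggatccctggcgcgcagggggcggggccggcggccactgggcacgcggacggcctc
The D-box was in 0.819% of the windows at least once and in 0.0183% at least 2 times. Per3 was the only 1 of 6 higher core clock genes with a window that held it, and 0 of 3 higher clock output factors did. The E-box CACGTG, also searched on both strands, was in 6.02% of windows, and it was found 3 times in that of Ciart and at least once in that of Per1, the 2 of 6 higher core clock genes with a window that held it. At least 3 copies of the E-box were in 0.0609% of the windows. These counts are of genes with a match in any of their windows, whereas the shares are of single windows.

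**Figure D4:**
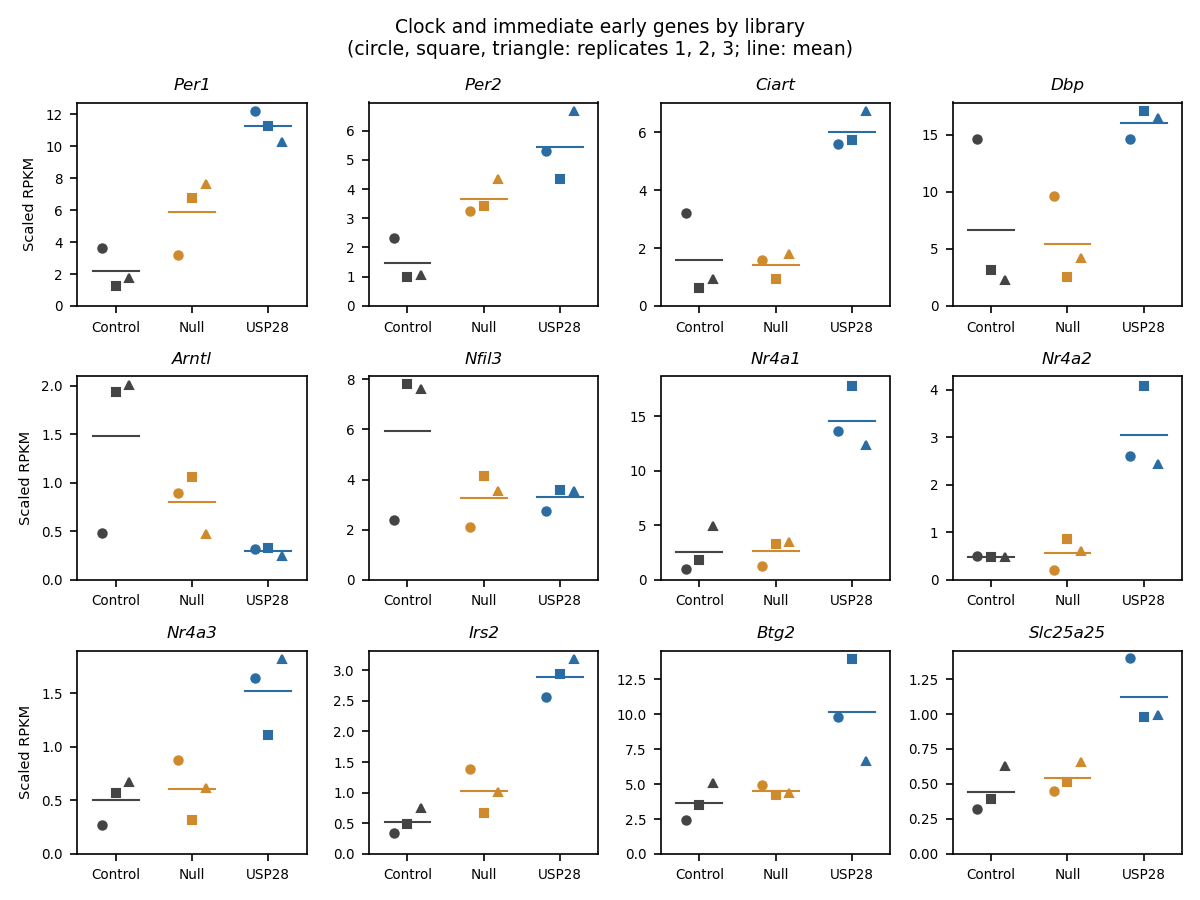
Scaled RPKM (vertical, from 0, own scale in each panel) of 12 clock, immediate early and signalling genes by library in the 3 groups, with a line at each group mean. Control replicate 1 (circle) lies apart from control replicates 2 and 3 in Dbp, Arntl and Nfil3, and the USP28-virus points lie above all others in Nr4a1, Nr4a2, Nr4a3 and Irs2.

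Genes that differed from control with USP28 virus and not with null virus were many, but few differed between the db/db groups. Of 440 genes called with USP28 virus and not with null virus (3.23%), 226 had an unadjusted p of at least 0.05 with null virus, and 17 of these also passed the test between the db/db groups in the same direction (0.125% of all tested), 12 higher (0.0881%) and 5 lower (0.0367%) with USP28 virus. Between the db/db groups 92 genes passed in all (0.675%), 57 higher (0.418%) and 35 lower (0.257%) with USP28 virus. The 17 were chosen for differing from control and from null virus, so that the lack of overlap given below is no separate result. Over all tested genes the db/db groups did not overlap in 23.9%.

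Nr4a2 (chr2:57106830-57124003), an orphan nuclear receptor, led the protein-coding genes among the 17. It stood at 2.6, 4.09 and 2.44 scaled RPKM with USP28 virus, 0.497, 0.491 and 0.482 in control and 0.214, 0.87 and 0.619 with null virus, so that every USP28-virus library lay above the other 6. It lay 2.38 ± 0.38 above control (adjusted p = 0.0079) and 2.35 above null virus (adjusted p = 0.04). Nr4a2, Gm27608 and Mir7006 were kept for testing through the USP28-virus libraries alone, so their rise over control is a description, and 14 of the 17 were not kept in that way. Ccdc88c, which binds the Wnt signal protein Dishevelled, stood at 7.66, 6.89 and 6.89, 3.09, 2.81 and 2.66, and 2.21, 3.78 and 3.78 in the same order, 1.30 above control and 1.15 above null virus (adjusted p = 0.045).

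Rnf207, a heart-rich ubiquitin ligase linked to the QT interval, stood at 29.3, 26.3 and 27.5 with USP28 virus, 17.9, 13 and 14.3 in control and 18, 16.7 and 16.5 with null virus. It lay 0.89 above control and 0.70 above null virus (adjusted p = 0.048). Hnrnpl, a splicing regulator, stood at 27.6, 25 and 23 with USP28 virus, against 15.1, 13.8 and 13.6 in control and 15.3, 16.1 and 17.7 with null virus, 0.83 above control and 0.62 above null virus (adjusted p = 0.045). In both genes the USP28-virus libraries lay above the other 6. The control and null-virus libraries overlapped in Rnf207 and not in Hnrnpl. Carns1, which makes the dipeptide carnosine, and Dach1, a transcription cofactor of coronary vessel growth, lay 0.67 and 0.62 above control (3 and 4 of 9 omissions).

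The genes lower only with USP28 virus were Exo5, Pla2g12a, Phospho2, 2210408F21Rik and Gm8116. Exo5, a DNA repair exonuclease, stood at 0.727, 0.746 and 0.546 against 1.19, 1.22 and 1.38 in control and 1.33, 1.33 and 1.21 with null virus, −0.83 from control (8 of 9) and −0.85 from null virus (adjusted p = 0.045). Pla2g12a, a secreted phospholipase, stood at 9.24, 9.46 and 10.9 against 16.2, 12.9 and 13.7 and 15.6, 15 and 16.4, −0.53 from control (5 of 9) and −0.67 from null virus. Phospho2, a phosphatase, lay −0.47 from control (5 of 9). No USP28-virus library overlapped another group in these genes.

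The other members higher only with USP28 virus were 2610306O10Rik, AU020206, Gm27608, Gm9009, Gm12002 and Mir7006. 2610306O10Rik stood at 72.1, 66.1 and 55.4 against 21.9, 26.1 and 33.3 in control and 21.5, 29.1 and 32.1 with null virus. Mir7006 was listed at 0 in all 6 other libraries and stood at 0.589 to 0.793 with USP28 virus, and no fold is given since those levels rest on a few reads. Single libraries set the count of 17. The call against null virus held in 1 to 4 of 9 omissions for each gene, and the count was 0 without any of the USP28-virus libraries or null-virus replicates 2 and 3, 5, 1 and 3 without control replicates 1, 2 and 3, and 194 without null-virus replicate 1, of which 13 were among the 17. It was 8 under library totals and 5 with every gene above 0 kept.

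**Figure D5:**
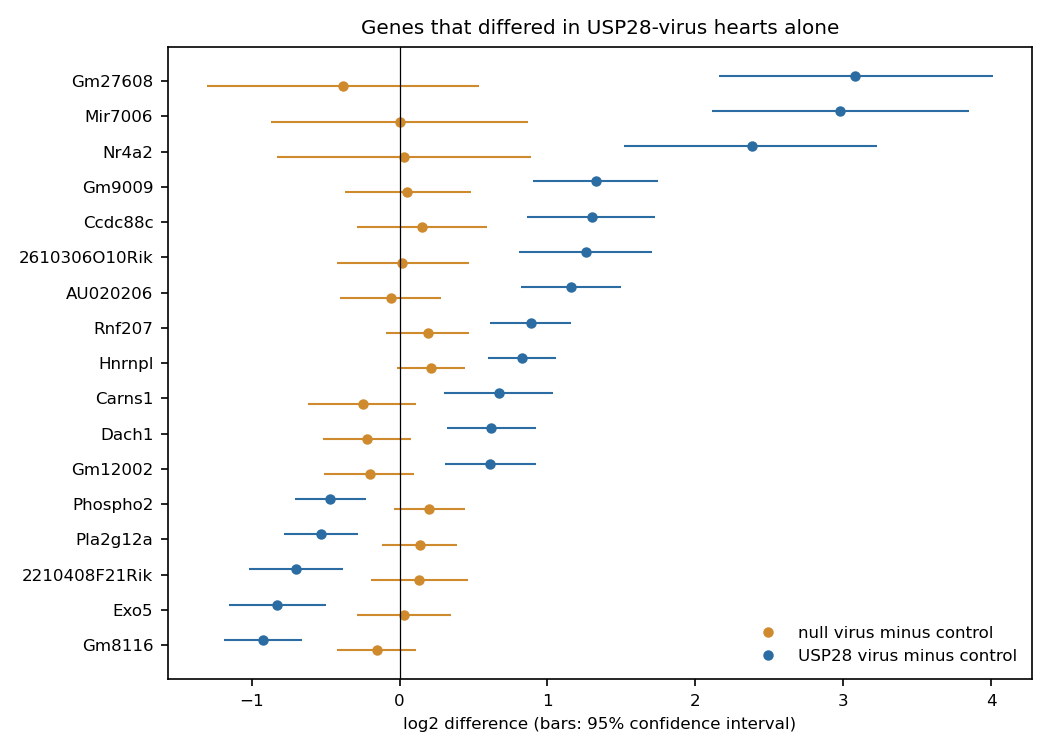
Log2 difference from control (horizontal) of the 17 genes that differed only with USP28 virus, for null virus (orange) and USP28 virus (blue), with 95% confidence intervals as bars. By the rule that chose these genes the orange intervals include 0 and the blue ones do not, so this is no separate result. The blue points run from Gm27608 at 3.08 to Gm8116 at −0.92. Gm27608 stood at 0, 0 and 0.121 scaled RPKM in control and 1.13, 0.895 and 1 with USP28 virus. The sizes shown for it and for Mir7006 therefore depend on the 0.1 added before the log.

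A few genes called in both db/db groups differed between them. Of the 1263 genes called in both db/db groups, 19 also differed between them, 18 of them nearer control with USP28 virus and 1, the nuclear long noncoding RNA Firre, farther. These 19 were chosen for differing, and each held its call against null virus in 1 to 4 of 9 omissions. The count was 0 without any 1 of the USP28-virus libraries or null-virus replicates 2 and 3, 6, 2 and 2 without control replicates 1, 2 and 3, and 200 without null-virus replicate 1. It was 17 with values that are off whole reads left out. Krt222, a keratin-like gene, stood at 3.74, 4.29 and 4.27 scaled RPKM with USP28 virus, 11.7, 11.6 and 12.4 in control and 2.15, 1.73 and 1.74 with null virus. Mylk4, a myosin light chain kinase of heart muscle, stood at 3.86, 7.49 and 5.93, 17.2, 14.5 and 14.7, and 1.53, 2.26 and 2.46 in the same order. Cat, which breaks down hydrogen peroxide in peroxisomes, stood at 108, 103 and 109, 69, 58.7 and 62.1, and 149, 165 and 178. In these 3 genes the groups did not overlap and the USP28-virus group lay between the others. Firre stood at 8.35, 8.44 and 7.92 against 4.54, 4.26 and 4.42 in control and 5.96, 5.83 and 5.51 with null virus. The remaining ones were Art5, Cd47, Col6a3, Cpeb3, Cpn2, Cyp4b1, Gm26752, Mfn1, Mfn2, Pdk4, Scube2, Selenbp1, Tinagl1, Tmem100 and Ypel3.

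By contrast, 35 genes (0.257%) passed against control with null virus, passed in the opposite direction between the db/db groups and had an unadjusted p of at least 0.05 between USP28 virus and control. Of these, 15 had been higher with null virus (0.11%) and 20 lower (0.147%). The myosin gene Myh7b stood at 79.5, 72.4 and 74.2 with USP28 virus, 76.1, 112 and 123 in control and 33.3, 22.3 and 25.3 with null virus. Mt1, a metallothionein, stood at 8.61, 6.56 and 8.02, 8.08, 5.5 and 5.33, and 18.3, 16.2 and 19.8 in the same order. Both overlapped control, and neither overlapped null virus, from which the rule required them to differ. Such a p does not show equality: the log2 differences from control were −0.43 ± 0.20 (adjusted p = 0.19) for Myh7b and 0.31 ± 0.18 (adjusted p = 0.29) for Mt1. Only 6 genes (0.044%) passed against control in opposite directions in the 2 db/db groups, 4 higher (0.0294%) and 2 lower (0.0147%) with USP28 virus. They were Blk, Asb11, Rpl9-ps6, Ifi203-ps, Gm17552 and Gm38314, and Asb11, a ubiquitin ligase adaptor of muscle, stood at 5.5, 6.33 and 6.73 with USP28 virus, 8.55, 8.32 and 9.1 in control and 10, 12 and 12.1 with null virus. The count of 35 was 0 without any of the USP28-virus libraries or null-virus replicates 2 and 3, 15, 2 and 1 without control replicates 1, 2 and 3, and 336 without null-virus replicate 1.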

How the data were processed

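Left ventricle messenger RNA of 9 mouse libraries was sequenced from directional polyadenylated libraries, per the labels' protocols. HISAT2 and DESeq2 were used, per the submitters' processing notes, which name the human build GRCh38. The gene symbols are those of the mouse, and 25482 of 30128 gene spans equal GENCODE release M21 spans on GRCm38, the build used here. Neither the counting program nor its strand setting is given in the sources used here, so overlapping genes cannot be parted.

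The authors deposited RPKM values. Multiplied by gene length, the values of a library were whole multiples of a single step for 99.9839% of positive values (tolerance 0.01 reads), which gave depths of 35970332 to 56497662 reads. A value listed at 0 allows up to 3 reads, for counting error only. No pair of replicates held identical values.

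RPKM values were scaled by a trimmed mean of M values (30% of ratios, 5% of levels), and log2(scaled RPKM + 0.1) was tested with limma 3.58.1 (R 4.3.3), trended and robust, in 1 fit of 9 libraries and 3 groups. P-values were adjusted by Benjamini-Hochberg over all 13623 genes. This scale understates changes of low genes. On simulated reads for USP28 virus against control (13587 genes), 16%, 62%, 76% and 90% of genes changed 1.5-, 2-, 3- and 4-fold were recovered and 8 of 13397 unchanged genes were called. Only 50 genes were changed at each fold there, whereas 1709 passed in the data. The adjusted threshold is therefore not the same, and these shares need not hold for the data. Motifs were searched in RefSeq windows of GRCm38.p6.

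The 41 pathway lists, the 15 marker lists and the rules were chosen with earlier results of these data known, and no set test was made. Named genes were a fixed set of interest, the 12 largest rises and 12 largest falls among genes whose groups did not overlap and whose higher group averaged 2 or more, up to 4 members of each list with the smallest p, and the leading genes of each class, without gene models, Riken clones and pseudogenes. Other genes were named after their values were seen, and 1 gene under the rule is not reported here. Alternatives were scalings, pseudocounts, filters, 2 groups alone, a replicate block, limma voom on recovered reads and each library left out. Omitting genes whose values were off the whole-read steps was chosen after seeing the data.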

Additional observations from a re-analysis of the deposited data

How the results depend on the processing

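No comparison or named gene that was called reversed under any alternative, though library totals turned the majority among called genes from lower (881 to 828) to higher (636 to 321). Of 3409 alternative values of named genes 2943 kept their side of the threshold, 458 lost it and 8 gained it. With 2 groups alone, 3875 genes passed for USP28 virus against control, and Usp28 passed at −0.28. With library totals alone the counts were 957 for USP28 virus against control, 41 between the db/db groups, 727 abnormal in both, 8 differing only with USP28 virus and 17 moved back. With every gene above 0 kept, they were 36 between the db/db groups, 5 only with USP28 virus and 13 moved back. With limma voom they were 194, 32 and 78. A pseudocount of 1 gave 26 genes only with USP28 virus.

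Leaving out each library in turn gave 393 to 4141 genes for USP28 virus against control, 1478 to 4443 for null virus against control, 0 to 955 between the db/db groups, 339 to 2678 abnormal in both, 0 to 194 only with USP28 virus, 0 to 336 moved back, and a Usp28 difference of −0.32 to −0.22. The highest counts were all without null-virus replicate 1.

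Replicate numbers did not pair the libraries, since same-numbered deviations correlated at −0.0444 to 0.0438. With the replicate number as a block, 1313 genes passed for USP28 virus against control and 0 between the db/db groups in limma (2292 at an unadjusted p under 0.05), hence 0 only with USP28 virus and 0 moved back.

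With 3 libraries a group, changes of 1.5-fold were mostly missed on simulated reads, in which fewer genes changed than passed in the data. Genes that did not pass are not shown to be alike.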
